A study of Mus musculus with 4 samples.

Results

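The messenger RNAs of 6 S100 genes (S100a4, S100a6, S100a8, S100a9, S100a10 and S100a11), of Spp1 and of Lyz2 were followed in exosomes released by a mouse tumour and in the tumour itself. The members were taken by gene symbol, and these 8 genes are 8 of the 47069 gene IDs in the deposited counts. Lewis lung carcinoma, an established mouse lung carcinoma cell line, was grown under the skin of C57BL/6 mice for 3 weeks. The exosome group (2 libraries) holds RNA from exosomes of tumour pieces kept for 12 h in RPMI medium without serum, which was passed through a 0.2 µm filter before a precipitation reagent collected the exosomes. The primary tumour group (2 libraries) holds total RNA of tumour tissue. All 4 libraries share strain and inoculum. Whether replicates came from separate animals is not stated in the labels. The p-values therefore measure only the spread between these libraries, which may be technical. Tumours under the skin contain host cells beside carcinoma cells, and the pieces in culture held both, so the cell of origin of a messenger RNA is not given by these data.

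Most S100 proteins are small calcium-binding proteins that change shape when calcium binds and then attach to partner proteins. S100A8 and S100A9 pair with each other to form calprotectin, which neutrophils and monocytes store in large amounts and release as a danger signal through the receptors TLR4 and RAGE (gene Ager). S100A4 is known from metastasis and from fibroblasts. S100A6 binds calcyclin-binding protein, and S100A10 and S100A11 bind the membrane proteins annexin A2 and annexin A1. Spp1 encodes osteopontin, a secreted ligand of integrins and CD44 made by macrophages and carcinoma cells, and Lyz2 encodes lysozyme, the antibacterial enzyme of macrophages, monocytes and neutrophils. Calprotectin and other myeloid secreted factors are known as attractants in the premetastatic niche, the tissue that is altered before tumour cells arrive.

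All 6 S100 members lie on mouse chromosome 3 (GRCm38, GENCODE M21). S100a4 spans 90603771 to 90606045, S100a6 spans 90612882 to 90624181, S100a8 spans 90668978 to 90670035 and S100a9, the only one on the minus strand, spans 90692632 to 90695721. S100a11 (93520488 to 93526287) and S100a10 (93555080 to 93564643) stand apart from these 4. Spp1 lies on chromosome 5 (104435118 to 104441050) and Lyz2 on chromosome 10 (117277331 to 117282321, minus strand). No annotated small RNA gene lies within any member. S100a4 overlaps the coding gene Gm42674, which had no count, and Spp1 overlaps Gm42793, which had 2 counts in tumour replicate 1.

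Sequence copies bear on 2 of the members. Lyz2 has a close neighbour, Lyz1, whose coding sequence has the same length of 447 bases, differs at 22 positions (95.1% identical) and shares an identical run of 118 bases. The 90 bases with most differences, coding positions 43 to 132, show where reads can be told apart. Capitals mark the 13 bases that differ.
Lyz2: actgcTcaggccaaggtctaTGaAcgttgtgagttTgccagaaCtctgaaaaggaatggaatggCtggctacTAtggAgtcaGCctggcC
Lyz1: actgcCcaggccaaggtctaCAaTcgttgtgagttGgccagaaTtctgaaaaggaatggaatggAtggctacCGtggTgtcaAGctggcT
Reads that fall outside such places could be counted for either gene, and their treatment by the authors is not given in the sources used here. S100a11 shares stretches of at least 50 bases at 90% identity or more with 5 processed pseudogenes, the closest of which, Gm12854, is 99.0% identical over 297 bases. These pseudogenes had at most 2 counts in a library, so the level of S100a11 itself is uncertain.

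S100a8 and S100a9 are shown with the 250 bases before the RefSeq start site (GRCm38.p6), since they are neighbours, encode the parts of 1 protein complex, and were low together in tumour replicate 2, as the counts below show. The stretches are chr3:90668821-90669070 on the plus strand and chr3:90695722-90695971 on the minus strand, written 5′ to 3′. Both strands were searched. The letters searched for the TATA box were TATAAA. Those for the factor C/EBP were TTNNGNAA. Those for the factor AP-1 were TGANTCA, and those for the myeloid factor PU.1 were GAGGAAG. Capitals mark the matches, and none overlap.
S100a8: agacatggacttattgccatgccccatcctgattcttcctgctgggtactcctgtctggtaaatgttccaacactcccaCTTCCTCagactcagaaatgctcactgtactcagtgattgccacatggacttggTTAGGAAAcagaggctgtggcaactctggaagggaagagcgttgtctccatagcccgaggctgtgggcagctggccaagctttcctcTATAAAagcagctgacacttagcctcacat
S100a9: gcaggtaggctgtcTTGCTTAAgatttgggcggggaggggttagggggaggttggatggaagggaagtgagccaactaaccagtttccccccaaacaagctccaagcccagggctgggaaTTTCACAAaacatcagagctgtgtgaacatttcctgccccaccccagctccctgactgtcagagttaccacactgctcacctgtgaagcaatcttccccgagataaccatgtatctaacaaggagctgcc
The S100a8 stretch holds the TATA box letters with their first base at position -30 from the start site, a C/EBP match at -117 and a PU.1 match at -171. The S100a9 stretch holds C/EBP matches at -236 and -130 and no match to the other 3. Over 32851 RefSeq promoters of the same length, 12.4% hold the TATA box letters, 36.8% the C/EBP letters, 6.75% the AP-1 letters and 10.6% the PU.1 letters. A match is a description of letters, and nothing about promoter use was measured.

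The exosome libraries held 305751 and 217201 gene counts and the tumour libraries 14543691 and 10849811. Protein-coding genes had 8640 and 7160 of the exosome counts (2.83% and 3.30%) and 225866 and 171152 of the tumour counts (1.55% and 1.58%). The members rest on few counts, at most 11 in an exosome library and 73 in a tumour library. One count is worth 3.27 and 4.60 CPM (counts per 1000000 gene counts) in the exosome libraries and 0.0688 and 0.0922 CPM in the tumour libraries. Among coding genes, 65.1% and 67.2% of tumour counts fell on Snrpb alone, and 10.2% and 21.9% of exosome counts fell on Yipf1. For a comparison among messenger RNAs, a reduced coding total was therefore also used, chosen after seeing the data: coding genes that overlap no annotated small RNA gene, without the 3 genes (Snrpb, Yipf1 and Rpl7a) that held over 5% of coding counts in a library. It came to 6264 and 4499 counts in exosomes and 49663 and 35012 in tumour. The protocols name no molecular identifiers for the amplified products, so the intervals below, exact 95% intervals, cover counting error only.

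S100a9 had 11 and 4 counts in the exosome libraries and 22 and 2 in the tumour libraries. As shares of all counts these are 36.0 CPM (18.0 to 64.4) and 18.4 CPM (5.02 to 47.2) in exosomes against 1.51 CPM (0.948 to 2.29) and 0.184 CPM (0.0223 to 0.666) in tumour. Both exosome libraries lay above both tumour libraries, and tumour replicate 2 was far below tumour replicate 1. At the tumour share, 0.289 and 0.205 counts would have been seen at the depth of the exosome libraries. S100a8 had 4 and 7 exosome counts (13.1 and 32.2 CPM) and 32 and 8 tumour counts (2.20 and 0.737 CPM). It too was higher in both exosome libraries on this scale, and again lower in tumour replicate 2.

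S100a6, the member with most tumour counts, had 5 and 6 exosome counts (16.4 and 27.6 CPM) and 73 and 61 tumour counts (5.02 and 5.62 CPM). Its tumour libraries lay close together and below both exosome libraries. S100a10 was counted 2 and 0 times in exosomes (6.54 and 0 CPM) and 20 and 13 times in tumour (1.38 and 1.20 CPM). At the tumour share only 0.282 counts would have been seen in exosome replicate 2, so its 0 does not place it below the tumour level. S100a4 had no exosome count and 5 and 2 tumour counts, and S100a11 had no exosome count and 6 and 1 tumour counts. A count of 0 allows up to 12.1 CPM in exosome replicate 1 and 17.0 CPM in exosome replicate 2, far above the tumour levels of both genes, and at the tumour share each gene would have had 0.144 counts over both exosome libraries. A difference of S100a4 or S100a11 was not detectable at this depth.

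Spp1, the osteopontin gene, had 4 counts in each exosome library (13.1 and 18.4 CPM) and 46 and 22 in tumour (3.16 and 2.03 CPM). The groups did not overlap, and the exosome libraries were higher. Lyz2 had 1 and 7 exosome counts (3.27 and 32.2 CPM) and 34 and 24 tumour counts (2.34 and 2.21 CPM). Its tumour libraries agreed within 1.06-fold, while its exosome libraries differed, with a ratio of replicate 1 to replicate 2 of 0.101 (0.00225 to 0.790). The neighbour Lyz1 had 1 and 0 exosome counts and 4 and 2 tumour counts, so adding it to Lyz2 gave 2 and 7 against 38 and 26. The 5 genes with counts in both exosome libraries had higher CPM in both than in either tumour library, as did 77.2% of the 1442 genes tested below. Since 1 exosome count is already worth 3.27 or 4.60 CPM, more than the tumour level of S100a8, S100a9, Spp1 or Lyz2, this arrangement follows from being counted in exosomes at all and is no finding for those 4.

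**Figure D1:**
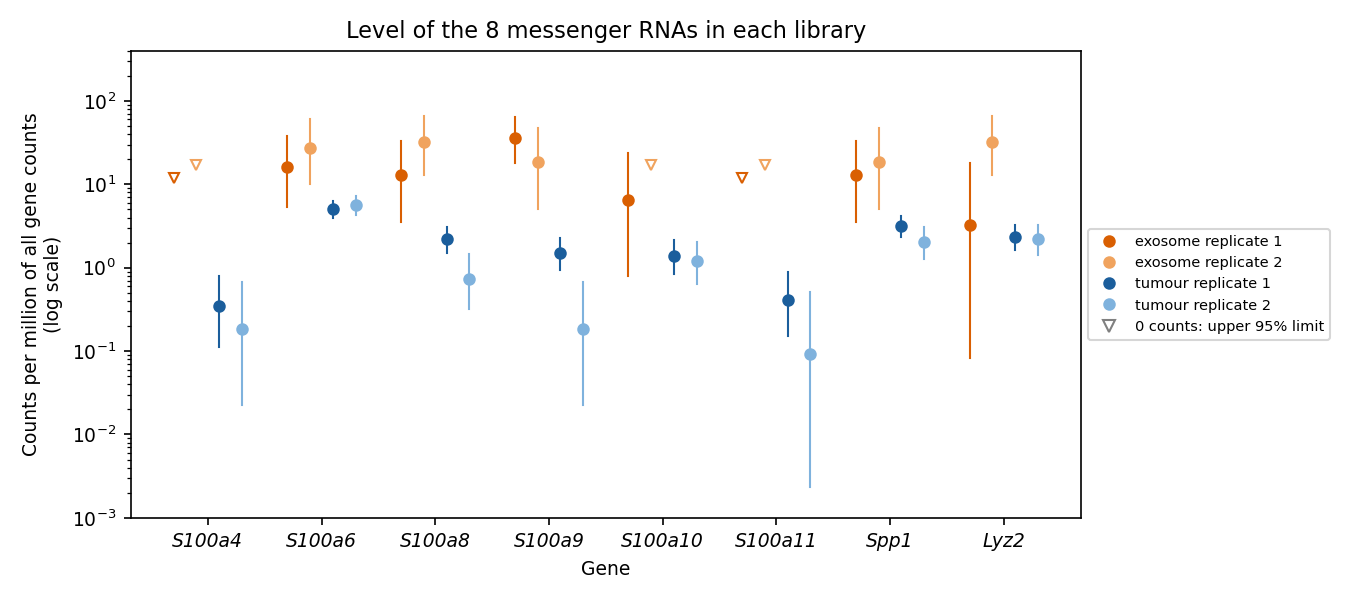
CPM as a share of all gene counts (log axis) for the 8 genes in each of the 4 libraries. Points are single libraries, lines their exact 95% counting intervals, and open triangles the upper limit where a library had 0 counts. S100a9 and S100a8 show the widest gap between exosomes and tumour, and S100a4 and S100a11 have no exosome count.

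Together the 8 genes had 27 and 28 counts in exosomes and 238 and 133 in tumour. This is 88.3 and 129 CPM against 16.4 and 12.3 CPM, or 109 CPM ± 28.7 against 14.3 CPM ± 2.90 (SD, n = 2), and the pooled share was 7.20 times higher in exosomes (5.32 to 9.58). As a share of the reduced coding total the sum was 0.431% and 0.622% in exosomes and 0.479% and 0.380% in tumour. The groups then overlapped, and the pooled ratio was 1.17 (0.862 to 1.55). For the summed CPM the exact permutation test (two-sided) gave p = 0.333, the smallest that 2 against 2 allows, so 0.05 cannot be reached. For the share of the reduced coding total the same permutation test gave p = 0.667. The members were chosen with earlier results known, so neither p is support for a difference. The 6 S100 members alone had a ratio of 7.73 (5.37 to 10.9) on all counts and 1.25 (0.869 to 1.76) on the reduced coding total. Spp1 and Lyz2 together had 6.17 (3.42 to 10.4) and 0.999 (0.554 to 1.69).

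The ratios of the single members spread widely, and the spread itself was not tested. On the reduced coding total S100a9 stood at 4.92 (2.40 to 9.76) and S100a8 at 2.16 (1.001 to 4.30), while S100a6 stood at 0.646 (0.315 to 1.19), S100a10 at 0.477 (0.0554 to 1.86), Spp1 at 0.926 (0.384 to 1.93) and Lyz2 at 1.09 (0.447 to 2.28). These intervals pool the libraries of a group and leave out the spread between them, which was wide for S100a9 and S100a8 in tumour and for Lyz2 in exosomes. By library, S100a9 had 0.176% and 0.0889% of the reduced coding total in exosomes against 0.0443% and 0.00571% in tumour, and its groups did not overlap. Of all tested genes, 32.9% had both exosome libraries above both tumour libraries on this scale, so this arrangement is common among them. S100a8 had 0.0639% and 0.156% against 0.0644% and 0.0228%, and exosome replicate 1 lay just below tumour replicate 1. S100a6 had 0.0798% and 0.133% against 0.147% and 0.174%, with both exosome libraries below both tumour libraries, as in 33.8% of tested genes.

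**Figure D2:**
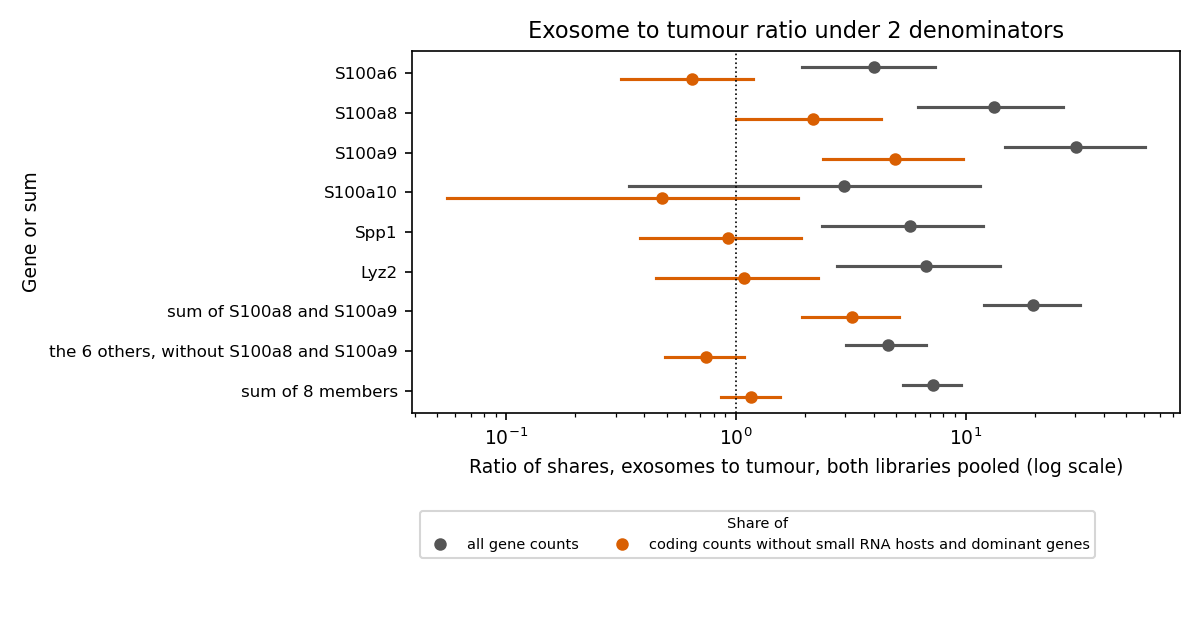
Ratio of the pooled exosome share to the pooled tumour share (log axis) for the 6 genes with an exosome count and for 3 sums. Grey points are shares of all gene counts, orange points shares of the reduced coding total, lines are exact 95% counting intervals, and the dotted line is a ratio of 1. The ratio of the sum of 8 moves from 7.20 to 1.17 with the denominator. The intervals of S100a9, of S100a8 (from 1.001 on the reduced coding total) and of their sum stay above 1 on both.

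The make-up of the sum does not depend on any scaling between libraries. S100a8 and S100a9 together, a pair singled out after its values were seen, made up 15 of 27 member counts (55.6%, 35.3% to 74.5%) and 11 of 28 (39.3%, 21.5% to 59.4%) in exosomes. In tumour they made up 54 of 238 (22.7%, 17.5% to 28.5%) and 10 of 133 (7.52%, 3.66% to 13.4%). The exosome libraries thus had the larger share in each case, with 47.4% ± 11.5 against 15.1% ± 10.7 (SD, n = 2), and the interval of exosome replicate 2 overlapped that of tumour replicate 1. S100a6 took 18.5% and 21.4% of the sum in exosomes and 30.7% and 45.9% in tumour. Spp1 kept a narrower range of 14.3% to 19.3% over the 4 libraries.

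**Figure D3:**
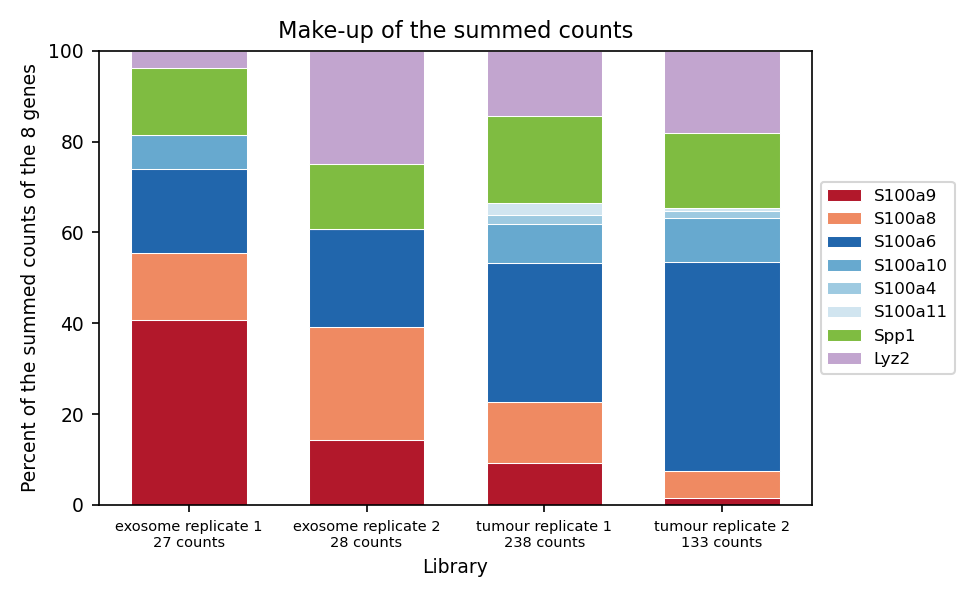
Percent of the summed counts of the 8 genes that each gene held in each library, with the summed count under each bar. The red and orange parts, S100a9 and S100a8, made up 55.6% and 39.3% in exosomes against 22.7% and 7.52% in tumour.

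Gene length was taken into account through FPKM, the length-scaled fragment counts that the authors deposited, to order the members. The gene length that these values imply runs from 511 bases (S100a11) to 5372 bases (Spp1), with 728 for S100a9 and 1930 for S100a6, and the order depends on it. An annotated transcript of Spp1 has 1507 bases, and 1 of S100a4 has 498 where 834 are implied. The FPKM of these 2 genes, and so their places in the order, may therefore be too low. For S100a6, S100a8, S100a9 and S100a10 no transcript length was set beside the implied one. The 984 bases implied for S100a8 are nearly the whole span of its gene. The FPKM of these genes may be too low by unlike amounts, so the order and the ranks below are uncertain. In exosomes the order was S100a9 (49.4 and 25.3 FPKM), S100a8 (13.3 and 32.8), Lyz2 (2.58 and 25.5), S100a6 (8.47 and 14.3), Spp1 (2.44 and 3.43) and S100a10 (4.04 and 0). Neighbours in the first 4 places overlapped between libraries. In tumour S100a6 led (2.60 and 2.91 FPKM), followed by Lyz2 (1.85 and 1.75), S100a8 (2.24 and 0.749) and S100a9 (2.08 and 0.253). S100a10 (0.848 and 0.739), S100a11 (0.807 and 0.180), Spp1 (0.589 and 0.377) and S100a4 (0.412 and 0.221) were lower on average. The libraries overlapped widely in this order, and S100a9 in tumour replicate 2 lay below S100a10 and Spp1. Only the tumour levels of S100a6 lay above those of every other member in both libraries. Among coding genes with a count, S100a9 ranked 11 of 4184 and 26 of 3127 by FPKM in the exosome libraries, and 103 of 8724 and 493 of 7783 in the tumour libraries. S100a6 ranked 81 and 50 in exosomes and 84 and 81 in tumour.

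Counts of all genes were then compared with edgeR's quasi-likelihood test, with TMM scaling, which sets differences relative to the typical tested gene. Differences are log2, exosomes minus tumour, and adjusted p are Benjamini-Hochberg values over the 1442 genes tested. Of the 8 members, 5 passed the filter on low counts (1.79 CPM in at least 2 libraries and a total of 15). S100a6, Spp1 and Lyz2 reached that level in both tumour libraries, S100a8 in 1 tumour library and S100a9 in none, so S100a9 was admitted through its exosome counts alone. S100a4, S100a10 and S100a11 did not pass.

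None of the 5 tested members passed an adjusted p of 0.05 in either direction, against a background of 16.0% of tested genes called higher and 22.1% called lower, and 5.35% and 10.5% of the 954 tested coding genes. S100a9 had a difference of 2.16 (SE 0.86, unadjusted p = 0.0384, edgeR adjusted p = 0.0907), the only unadjusted p under 0.05. Since S100a9 was tested only because it was high in exosomes, and S100a8 also needed its exosome libraries to pass, their differences had to lean upward and do not rank them against the other members. DESeq2 called 0 of the 6 members to which it gave an adjusted p. S100a8 had 0.99 (SE 0.71, edgeR adjusted p = 0.357). S100a6 had -0.79 (SE 0.38, edgeR adjusted p = 0.160), Spp1 -0.24 (SE 0.51, edgeR adjusted p = 0.801) and Lyz2 -0.02 (SE 0.68, edgeR adjusted p = 0.989). The median difference of all tested genes was 0.02, and that of the tested coding genes 0.06. An adjusted p that misses the threshold does not show equal levels, and the SEs leave room for differences of more than 1 on this scale for Spp1 and Lyz2.

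**Figure D4:**
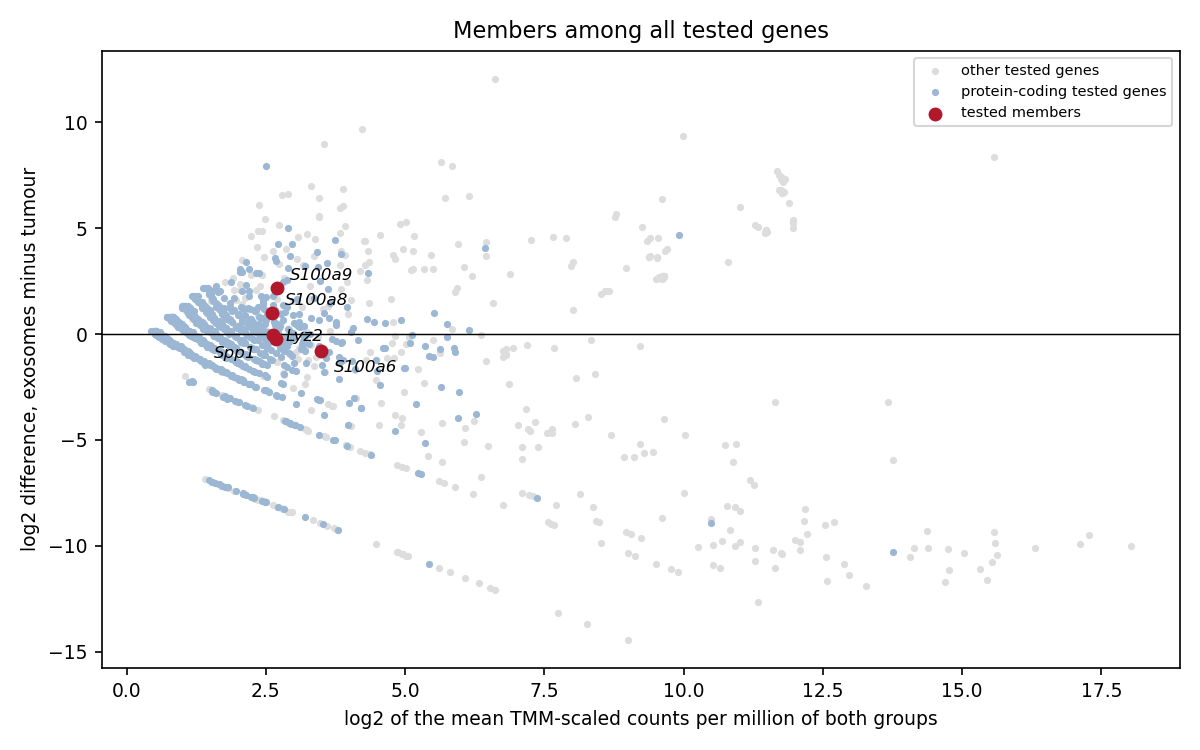
Difference between exosomes and tumour (log2, TMM scaling) against the log2 of the mean scaled CPM for the 1442 tested genes. Red points are the 5 tested members, blue points other coding genes and grey points the rest. The members lie between -0.79 and 2.16, amid coding genes on both sides of 0.

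The reading of the members turned on the scaling. When counts were scaled by library totals alone, the median of all tested genes moved up by 2.74, and 63.8% of them were called higher and 11.5% lower. All 5 tested members were then called higher, with S100a9 at 4.92 (edgeR adjusted p = 2.51e-08), S100a8 at 3.76 (9.68e-06), Lyz2 at 2.75 (0.00128), Spp1 at 2.53 (0.00159) and S100a6 at 1.99 (0.00242). The median of all tested genes was then 2.75. S100a9 and S100a8 stood above it, Lyz2 on it, and Spp1 and S100a6 below it. Scaling to the reduced coding total moved the median by 0.14 and gave S100a9 2.30 (edgeR adjusted p = 0.0226), a call that 17.2% of tested genes had, while the other 4 were not called. The difference of S100a9 ran from 0.99 to 4.92 over the 13 settings tried, 7 of which called it higher. The lowest value came with no filter (edgeR adjusted p = 0.524), and the filter on exosome counts admits the gene in most of the others, so this tally is no sign of stability. Among all tested genes 45.2% were called higher with protein-coding counts, 15.4% with median-of-ratios scaling, 1.49% (and 4.23% lower) with no filter, 16.8% with at least 10 counts in 2 libraries, 7.63% with DESeq2, and 14.3%, 14.7%, 16.2% and 15.7% with exosome replicate 1 or 2 or tumour replicate 1 or 2 left out. S100a8 was above 0 in 11 of 12 settings and called in 3, and S100a6 was below 0 in 11 of 13. With no filter S100a8 stood at -0.18, and it needed its exosome counts to pass the main filter. All settings refit the same libraries, so these tallies are no sign of stability either.

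**Figure D5:**
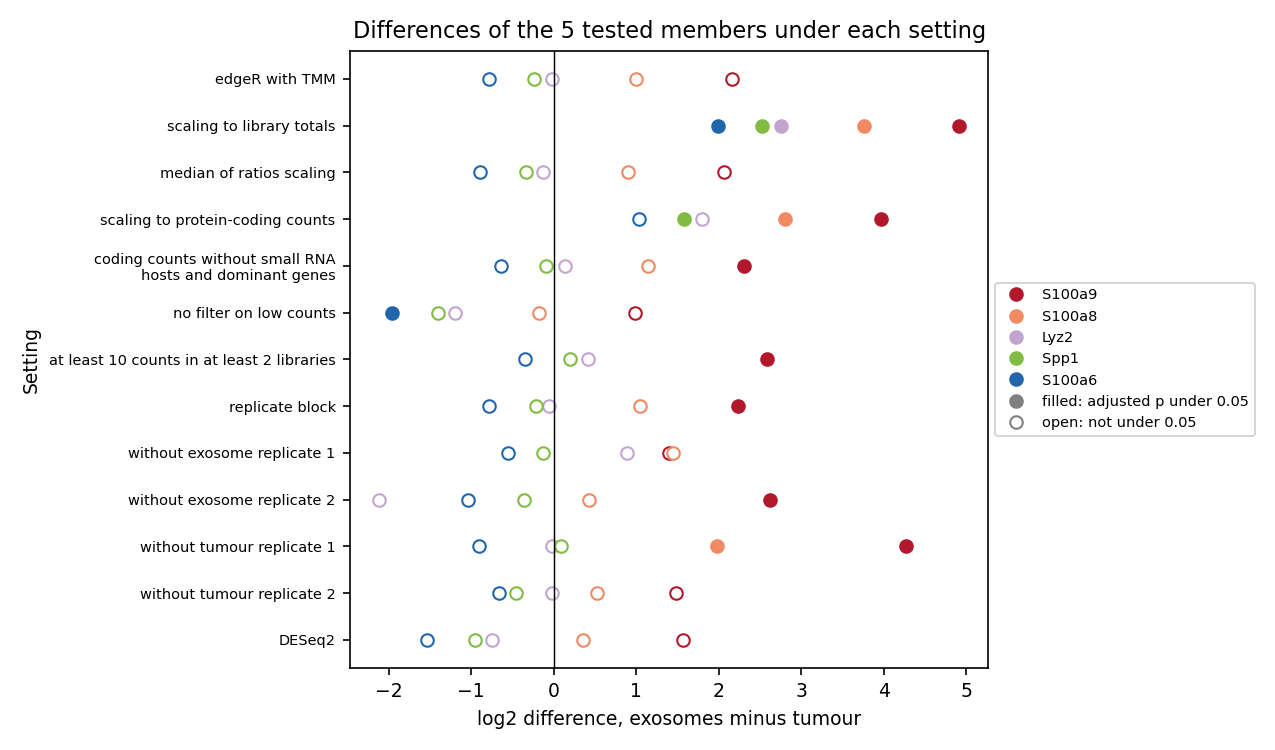
Difference of the 5 tested members (log2, exosomes minus tumour) under each of 13 settings, 1 row per setting. Filled points have an adjusted p under 0.05. S100a9 is right of 0 in each row, and only with library totals are all 5 members filled.

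S100a8 and S100a9 differed between the tumour libraries beyond counting error. They were singled out after their values were seen, and how many of all genes differ as much was not counted. The difference is therefore not shown to be particular to them. The share in tumour replicate 1 was 8.21 times that in replicate 2 for S100a9 (2.02 to 72.0) and 2.98 times for S100a8 (1.35 to 7.50), and 4.03 times for their sum (2.03 to 8.87). For S100a6 the ratio was 0.893 (0.627 to 1.28), for Lyz2 1.06 (0.609 to 1.86), for S100a10 1.15 (0.543 to 2.51), for Spp1 1.56 (0.919 to 2.72), for S100a4 1.87 (0.305 to 19.6) and for S100a11 4.48 (0.543 to 206). The last 2 rest on 7 counts each, and the 6 intervals include 1. The exosome difference of S100a9 depends on which tumour library it is set against. It was 4.28 (edgeR adjusted p = 3.93e-06) without tumour replicate 1 and 1.48 (edgeR adjusted p = 0.0980) without tumour replicate 2, and for S100a8 1.98 (edgeR adjusted p = 0.0215) and 0.52 (edgeR adjusted p = 0.684). Leaving out exosome replicate 1 gave S100a9 1.40 (edgeR adjusted p = 0.451) and leaving out exosome replicate 2 gave 2.62 (edgeR adjusted p = 0.0196). Lyz2 turned from -2.11 without exosome replicate 2 to 0.89 without exosome replicate 1, neither of which was called. The lone library of a group is assumed in these fits to vary like the other group.

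Markers of the cells that make these proteins gave few counts. Of 19 neutrophil markers, 11 had a count anywhere and 3 had an exosome count, with 3 and 1 counts in exosomes and 26 and 17 in tumour. Their summed level was 9.81 and 4.60 CPM in exosomes and 1.79 and 1.57 CPM in tumour. Cxcr2, the receptor for neutrophil-attracting chemokines, had most (2 and 0 in exosomes, 11 and 6 in tumour). Csf3r, named after its values were seen, had 7 and 6 counts in tumour and none in exosomes. In all 4 libraries 8 of the 19 were at 0, among them Ly6g, Mpo, Elane, Ltf, Camp and Ngp. These zeros do not show that neutrophils were absent. Relative to the reduced coding total the exosome to tumour ratio was 0.732 (0.191 to 2.01), on the other side of 1. The neutrophil list had a ratio of tumour replicate 1 to replicate 2 of 1.14 (0.596 to 2.24), against 4.03 for S100a8 and S100a9. No neutrophil marker passed the filter. The part of neutrophil RNA in the counts of S100a8 and S100a9 was not tested. In bulk RNA, fewer cells of a type and less RNA per cell cannot be told apart.

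Of 22 macrophage and monocyte markers, 21 had a count and 13 an exosome count, and 9 (Cd68, Adgre1, C1qa, Cd14, Fcer1g, Apoe, Ly6c2, Cybb and Cx3cr1) were at 0 in exosomes. Their sum was 16 and 11 counts in exosomes (52.3 and 50.6 CPM) and 285 and 195 in tumour (19.6 and 18.0 CPM). The 18 markers that overlap no small RNA gene, the only ones the reduced coding total can hold, had 8 and 5 counts against 119 and 87, a ratio of 0.496 (0.260 to 0.868). Of 5 tested markers 1 was called lower and 0 higher, beside 22.1% and 16.0% of all tested genes, with a list median of -0.25 beside 0.02. With library totals 3 of the 5 were called higher and 0 lower, beside 63.8% and 11.5% of all tested genes. The called gene was Fcgr3, a receptor for antibodies. It was counted 4 and 3 times in exosomes and 133 and 87 times in tumour (difference -2.13, SE 0.36, edgeR adjusted p = 0.00202). It overlaps an annotated small RNA gene, and with library totals it stood at 0.64. Lgmn, a lysosomal protease, and Cd74, the invariant chain, which also overlaps a small RNA gene, had -0.48 and -0.17 (edgeR adjusted p = 0.731 and 0.936). Lyz2, at a ratio of 1.09, and the macrophage list, at 0.496, thus had different values on 1 scale, and the difference between them was not tested.

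Other cell types were thin. The epithelial list had 1 and 2 exosome counts and 17 and 4 tumour counts, mostly Krt18, and Epcam, Cdh1, Krt19 and Cldn4 were at 0 in all 4 libraries. The T and natural killer cell list came to 1 and 0 counts in exosomes and none in tumour, and the B and plasma cell list to 1 and 1 against 0 and 3. The fibroblast and pericyte list had 28 and 24 against 156 and 86, most of them Col3a1, which overlaps a small RNA gene. Its 9 genes that host no small RNA had 9 and 8 against 42 and 16, with a ratio of 2.31 (1.26 to 4.02) on the reduced coding total, and 0 of 2 tested genes were called (Col3a1 0.56 and Col1a1 1.80). The endothelial list had 8 and 5 against 20 and 15, with a ratio of 2.86 (1.35 to 5.68) over the 7 genes that host no small RNA, and 0 of 1 tested genes was called (Cdh5 1.54). The erythroid list, globins above all, had 82 and 106 against 1662 and 881, with a ratio of 0.578 (0.496 to 0.672) over the 6 genes that host no small RNA. Of its 4 tested genes 2 were called lower, Hba-a1 at -1.08 and Hba-a2 at -1.04 (both edgeR adjusted p = 0.00928), near-identical copies whose reads could be split either way. Of all tested genes 22.1% were called lower and 16.0% higher, and of the tested coding genes 10.5% and 5.35%. The globin Hba-a2 was named after its values were seen. With library totals all 4 tested erythroid genes were called higher, as were 63.8% of all tested genes. Skeletal muscle (3 and 2 against 11 and 1) and skin and adipose lists (2 and 1 against 1 and 3) had few counts, and the 1 tested muscle gene, Acta1, had 1.22 (edgeR adjusted p = 0.425). Col1a1, Cdh5 and Acta1 were under the filter level in both tumour libraries. They were admitted through their exosome counts alone, so their differences had to lean upward. The part of these cells in the levels of the members was not tested.

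The rest of the S100 family gave few counts. Of 11 other genes (10 of the family and S100pbp, which encodes a protein that binds S100P), 5 had a count, and none had more than 2 in a library. S100a3, the most counted, had 2 counts in each tumour library and none in exosomes. S100a13, S100a16 and S100a7a each had 1 exosome count. None passed the filter.

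Of 20 receptors and binding partners of S100 proteins and osteopontin, 19 had a count and 10 were tested. Of these, 1 was called lower and 0 higher, beside 22.1% and 16.0% of all tested genes, with a list median of 0.40. With library totals 7 of the 10 were called higher, near the 63.8% of all tested genes. Anxa1, the annexin that S100A11 binds, was counted 2 and 7 times in exosomes and 408 and 239 times in tumour, and fell by 3.31 (SE 0.42, edgeR adjusted p = 0.000359). With library totals it stood at -0.53. Anxa2, the partner of S100A10, had 9 and 8 counts against 50 and 22 and was not called. Ahnak, a large scaffold protein of the cell membrane that S100A10 binds, had 42 and 43 against 253 and 177 (0.49, SE 0.19, edgeR adjusted p = 0.0777). Myh9, the nonmuscle myosin that S100A4 binds and whose gene overlaps a small RNA gene, had 25 and 15 against 111 and 83 (0.54, SE 0.26, edgeR adjusted p = 0.164). The calprotectin receptors gave almost nothing, with Ager at 0 in all libraries and Tlr4 at 0 in exosomes and at 2 and 1 in tumour. Cd44, which binds osteopontin, had 2 and 0 counts against 20 and 20. Cacybp, the calcyclin-binding protein gene, had 7 and 5 tumour counts and none in exosomes. Values of Anxa2, Cd44, Cacybp, Tlr4 and Ager were chosen for their known binding to the members after the counts were seen.

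Of 35 other premetastatic niche and secreted myeloid factors, 25 had a count and 12 were tested. Of these, 1 was called higher and 0 lower, beside 16.0% and 22.1% of all tested genes, with a list median of 0.02. The called gene was Sparc, a matrix protein, with 5 and 5 exosome counts against 6 and 3 in tumour (2.92, edgeR adjusted p = 0.00177), named after its values were seen. Both tumour libraries had Sparc under the filter level, so it was admitted through its exosome counts alone and its difference had to lean upward. With no filter, and with DESeq2, 0 genes of all the lists were called higher. Fn1, the fibronectin gene, had 26 and 19 against 294 and 182 (-0.56, SE 0.22, edgeR adjusted p = 0.0854). Lgals1, a galectin, had 5 and 4 against 38 and 35 (-0.20, SE 0.45, edgeR adjusted p = 0.833), and Vcan, the versican gene, had 0 and 6 against 31 and 21 (-0.28, SE 0.86, edgeR adjusted p = 0.871). Saa3, a serum amyloid gene known as a target of S100A8 signalling, had 1 tumour count and none in exosomes, and Saa1, Saa2, Lox, Tnf, Il6, Csf2, Csf3, Prok2, Postn and Chil3 were at 0 in all libraries. With library totals 11 of the 12 were called higher, where 63.8% of all tested genes were, and nothing particular to the list was tested.

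The coding genes nearest in pattern to the sum of the members, among 949 compared, were Trmt1 (distance 0.109), followed by Por, Ap1b1, Il4ra and Lrrc8c with the same distance of 0.131. Distance was Euclidean over the 4 libraries on centred log2 CPM with TMM scaling. Trmt1 had 1 and 1 exosome counts and 9 and 4 tumour counts, and each of the other 4 had 1 and 1 against 9 and 5. Likeness at such counts describes only these libraries.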

How the data were processed

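Gene counts and FPKM were available for 4 libraries, and groups were taken from the labels. The deposited counts are whole numbers per gene without normalization. The FPKM that the authors deposited are scaled to gene length and library total, and for the members the implied length agreed between libraries within 0.0434%. The 4 sample tables equal the series table. Per the labels' protocols, adaptors were ligated to the RNA and the amplified products were cut from a gel, and a size selection of this kind can shape which messenger RNA pieces are counted. TopHat2 2.0.9, Cufflinks 2.1.1, Cuffdiff and GRCm38.p4 appear in the submitters' processing notes. For the counting tool, annotation, multiply matching reads and strand, the sources used here give nothing. Symbols were matched for 46574 of 47069 gene IDs in GENCODE M21.

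Total counts per library ran from 217201 to 14543691, and this depth sets the intervals (Clopper-Pearson, 95%) and the limit for a count of 0. No fold beyond an upper limit was given for S100a4 and S100a11, with no exosome count and tumour levels under the limit for a count of 0. Ratios on 1 to 3 counts carry their counting interval. The test was edgeR 4.0.16 run under R 4.3.3 (TMM, filterByExpr with minimum count 10 and minimum total 15, two-sided quasi-likelihood test, group as the only term, threshold 0.05). The SE is the absolute difference divided by the square root of F. Ratio intervals are exact conditional binomial ones. Transcripts were compared with blastn 2.17.0 (at least 90% identity over at least 50 bases). Alternatives were other scalings, DESeq2 1.42.0, other filters, a replicate block and each library left out, the last on the same genes. The fit was tested on simulated data with the same gene shares in both groups, apart from genes set to change. That test does not cover a shift in make-up between the groups. Nor does it cover changes in genes with pooled shares as low as those of the members.

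The members and the 13 gene lists were chosen with earlier results of these data known. Besides the 8 members, genes named are up to 3 tested genes with the highest mean count of each list (or, with none tested, the most counted gene), the 5 nearest in pattern, and genes stated as named after their values were seen, which include each called gene of a list and genes at 0.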

Additional observations from a re-analysis of the deposited data

How the results depend on the processing

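With library totals, 920 of 1442 genes were called higher and 166 lower, against 230 and 318 with TMM. The members called higher were 5 with library totals, 3 with all protein-coding counts, 1 with the reduced coding total, 1 with at least 10 counts in at least 2 libraries, and 0 to 2 with each library left out. All protein-coding counts gave 652 higher and 209 lower. No filter gave 610 lower and called 1 member lower, S100a6 at -1.96. DESeq2 called 0 members in either direction, with 183 higher and 304 lower among 2399 genes, and gave S100a9 1.56.

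S100a6 turned to 1.99 with library totals and 1.04 with protein-coding counts. Spp1 turned to 2.53 and 1.58, to 0.20 with at least 10 counts in 2 libraries and, without tumour replicate 1, to 0.092. Lyz2 turned to 2.75 and 1.80, to 0.13 with the reduced coding total, to 0.41 with at least 10 counts and to 0.89 without exosome replicate 1. S100a8 turned to -0.18 with no filter, and was called at 3.76 and 2.81 with library totals and protein-coding counts. S100a9 was called at 4.92 and 3.97 with those, at 2.30 with the reduced coding total and at 2.58 with at least 10 counts. Leaving out 1 library gave ranges of 0.43 to 1.98 for S100a8, 1.40 to 4.28 for S100a9, -2.11 to 0.89 for Lyz2, -0.46 to 0.09 for Spp1 and -1.04 to -0.55 for S100a6. The cause of these changes was not tested.

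Same-numbered libraries did not deviate together (correlation -0.02 over 1442 genes). Many of these genes have few exosome counts, where counting error alone can hide a shared deviation. Whether the numbers pair the libraries was therefore not decided. With the replicate block, 1 member was called higher, S100a9 at 2.23 (edgeR adjusted p = 0.000246), with 244 genes higher and 345 lower and 2 list genes higher. That fit assumes the undecided pairing and leaves little from which to estimate the spread. S100a9 was again admitted through its exosome counts alone, so its small p is no added support.

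Of 179 list genes, 36 were tested, with 1 called higher and 4 lower. Higher and lower calls were 29 and 0 with library totals, 19 and 1 with protein-coding counts, 0 and 9 with no filter, 3 and 2 with at least 10 counts, 0 and 7 with DESeq2, and 7 lower with median-of-ratios scaling. With each library left out they were 1 to 5 higher and 2 to 7 lower.

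The ratio of the summed members was 7.20 on all counts, 3.73 on protein-coding counts, 3.89 without small RNA hosts, 1.17 on the reduced coding total and 9.76 with summed FPKM. It stayed within its counting interval with any 1 member or library left out. Exosome depth limits each member to steps of 3.27 and 4.60 CPM.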

Other observations

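Of the other S100 genes that lie among or beside the members on chromosome 3, S100a1, S100a2, S100a5 and S100a14 had no count in any library. S100a13, S100a16, S100a3 and S100a7a had at most 2 counts in a library, named after their values were seen.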
